A study of Brassica oleracea var. italica with 18 samples.

Results

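The 200 probes described here are those whose signal stood higher at 22 °C than at 15 °C, and higher again at 27 °C than at 22 °C, in the shoot meristems of both a heat-tolerant (HT) and a heat-sensitive (HS) broccoli genotype. They were taken from 43603 probes of a 1-colour Agilent array. Of these, 26247 were well above background, as marked by the scanner software, on all 18 arrays. For each of the 26247, the smallest of the 4 steps (22 minus 15 °C and 27 minus 22 °C, in HT and in HS) was found from the group means of the authors' log2 values, and 386 probes had a smallest step of at least 0.3. The 200 with the largest smallest step are called the rising probes. All 4 temperature steps were thus used to choose them, and the steps are given below as a description with no test. What was not used is the level of one genotype against the other, and that comparison was tested.

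HT is the inbred line B295 and HS is the line BR1 op of Brassica oleracea var. italica. Plants of both genotypes were raised at 22 °C under long days and then moved to 15, 22 or 27 °C, for 2 weeks per the labels and for a shorter time per the methods, and the meristems were collected before head formation. Each genotype and temperature had 3 arrays, described as biological replicates. The text does not settle whether an array holds 1 plant or a pool. Heat tolerance and heat sensitivity are each represented by a single line, so that heat tolerance cannot be told apart from any other difference between the lines. The array carries Brassica napus sequences, so a difference between the genotypes on 1 probe cannot be told apart from a sequence difference under that probe. Only 1 of the 19 cell-type marker genes considered, LFY, had an annotated probe. It was well above background on 18 of 18 arrays, at 7.57 to 9.37 on the log2 scale, and the labelled tissue could not be checked further.

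Plants sense warmth over a range well below that which damages cells. Small heat shock proteins are chaperones that hold unfolding proteins in a soluble state and are made at higher rates as temperature goes up. In crucifers the MADS-box factor FLC represses the passage from leaf to flower production, and its transcript is lowered by prolonged cold. The same meristems make defence proteins such as lipid transfer proteins and protease inhibitors, as well as the enzymes that act on glucosinolates, the sulfur compounds of cabbages.

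Levels below are log2 intensities after quantile normalization between arrays, and a difference of 1 is a 2-fold difference. The slides carrying the arrays matter for what can be compared. Slides 1, 2 and 3 held all arrays from 22 and 27 °C, with replicate 1 of both genotypes on slide 1 and so on, whereas the 15 °C arrays were on slides 4 and 5. The difference of 22 or 27 °C from 15 °C therefore cannot be told apart from the slide. The step from 22 to 27 °C, and HT against HS, were both within slides. Between 63.9% and 69.8% of the probes were well above background on an array, and 0 spots were saturated.

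The level of a rising probe averaged 5.39 to 16.7 over the 18 arrays. In whole meristems, more cells of a type and more RNA per cell cannot be told apart. Centred on its own mean, the median rising probe was at -1.15, -0.94 and -0.80 on the 3 HT arrays at 15 °C, at 0.11, 0.12 and -0.09 at 22 °C, and at 0.65, 0.74 and 0.96 at 27 °C. In HS the corresponding medians were -0.84, -0.79 and -0.71 at 15 °C, 0.19, 0.22 and -0.08 at 22 °C, and 0.89, 0.96 and 0.74 at 27 °C. The arrays of the 3 temperatures did not overlap in either genotype, and replicate 3, on slide 3, was the lowest at 22 °C in both. The median SD between replicates was 0.23 to 0.30 for the rising probes in the 6 groups, against 0.12 to 0.15 for all 26247 probes.

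**Figure D1:**
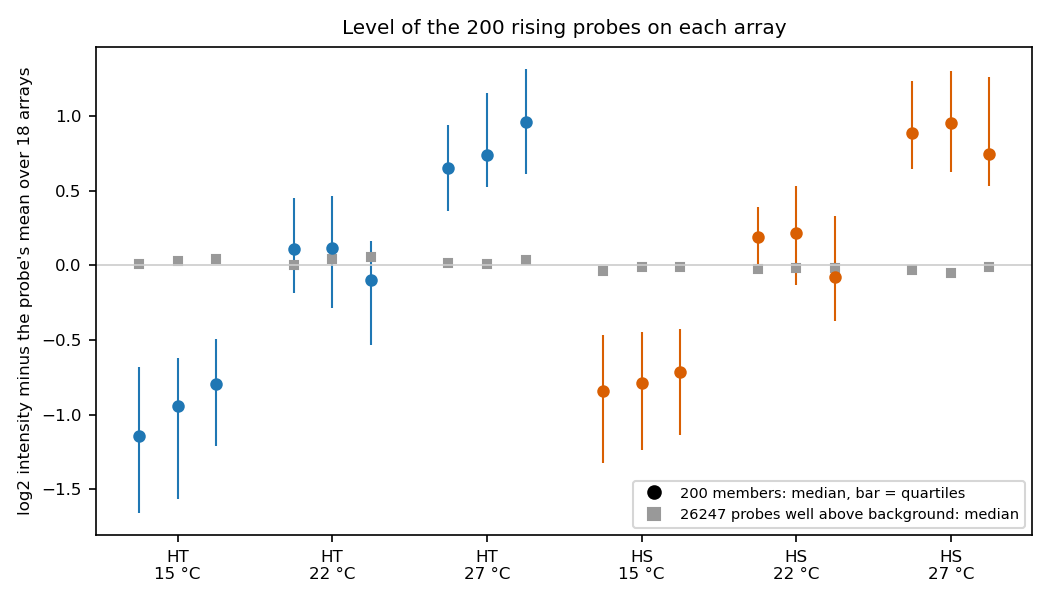
Median (circle) and quartiles (bar) of the 200 rising probes on each of the 18 arrays, as log2 intensity minus the mean of each probe, for HT (blue) and HS (orange) at 15, 22 and 27 °C; grey squares are the median of all 26247 probes well above background. The rising probes lie between -1.15 and -0.71 at 15 °C and between 0.65 and 0.96 at 27 °C.

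On the authors' log2 scale the median step from 15 to 22 °C was 0.94 in HT and 0.81 in HS, and that from 22 to 27 °C was 0.68 in HT and 0.73 in HS. The first step was the larger one for 130 of the 200 probes in HT and for 116 in HS. From 15 to 27 °C the median difference of normalized levels was 1.76 in HT (3.38-fold) and 1.55 in HS (2.93-fold). It was larger in HT for 107 probes and in HS for 93. The 3 arrays at 22 °C all lay above the 3 at 15 °C for 180 of the 200 probes in HT, against 19.3% of the 26247 probes, and for 140 in HS, against 14.7%. The arrays at 27 °C all lay above those at 22 °C for 163 in HT, against 10.7%, and for 154 in HS, against 9.85%. Within slides, 27 °C was above 22 °C on 3 of 3 slides for 184 probes in HT, against 22.3% of the 26247, and for 191 in HS, against 20.9%. Because the same steps chose the probes, nothing is read from these counts.

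The probe with the smallest step inside the limit was A_46_P350270 (locus AT5G54145, of unknown function) with 0.43, and the first outside it was A_46_P377400, also 0.43 after rounding. The limit thus passes through a continuous range of values. The largest smallest step was 1.68.

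**Figure D2:**
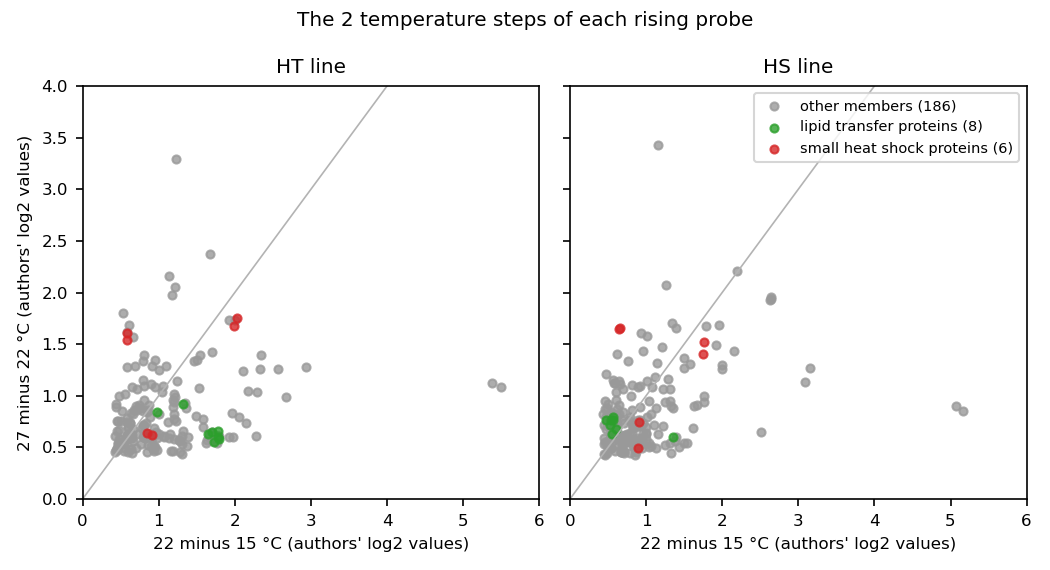
The step from 15 to 22 °C (horizontal, authors' log2 values) against that from 22 to 27 °C (vertical) for each of the 200 rising probes in HT (left) and HS (right), with small heat shock proteins in red, lipid transfer proteins in green and the line of equal steps in grey. All steps are at least 0.43 by the rule, and the 2 probes at the far right have first steps above 5 in both genotypes.

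Few of the rising probes carry a gene name. The array's targets are expressed sequence tags and contigs, and none of the 40632 target identifiers was in the reference table. Names come from the study's tables of co-expression modules and of genotype differences, where 104 of the 200 probes are found, 73 of them with the locus of the best Arabidopsis match (57 loci). Gene roles below are those known in Arabidopsis. Of the 104, 78 belong to the brown module and 7 to the purple module, which the study had built from these same arrays. The 104 probes are thus no neutral sample of the 200, and genotype counts are given apart for probes inside and outside the tables. The 200 probes represent 181 targets, and 13 targets account for 32 of the probes. Another 16 probes on the array belong to these targets but were not chosen. Of these, 5 exceeded background on each array, 4 of the 5 had positive steps at all 4 points, and 3 reached the minimum of 0.3.

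Of the 18 annotated probes of small heat shock proteins, 13 were eligible and 6, of 4 loci, were among the rising probes. Their smallest steps were 1.52 and 1.41 for HSP17.6II and HSP17.6A and 0.49 to 0.62 for the other 4, against a median of 0.57 over the 200. For each gene list here and below, calls for 27 against 15 °C are given only for the probes not chosen. The rising probes were selected for these differences. This comparison too lies between slides, so that temperature and slide cannot be told apart in it. The probes not chosen were left over by the same rule. The lists hold only probes from the study's tables, which were built from these same arrays. These counts are thus a description, and the share over all probes is no neutral baseline for them. Of the 12 small heat shock probes not chosen, 8 were called higher and 1 lower at 27 °C in HT, and 9 and 1 in HS (adjusted p under 0.05 by limma). Over all 43603 probes, 8.87% were called higher in HT and 9.25% lower, against 7.95% and 8.04% in HS. The median difference of the 12 probes was 1.46 in HT and 2.00 in HS.

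HSP17.6II (A_46_P246399, AT5G12020), a class II cytosolic small heat shock protein, was at 5.33, 5.45 and 5.55 on the HT arrays at 15 °C, at 7.15, 7.46 and 7.42 at 22 °C, and at 8.44, 8.94 and 9.55 at 27 °C. In HS it was at 6.07, 6.83 and 6.86 at 15 °C, at 8.46, 8.10 and 8.49 at 22 °C, and at 10.16, 9.59 and 9.95 at 27 °C. Every HT array lay below every HS array of the same temperature, and the mean level was 11.6-fold higher at 27 °C than at 15 °C in HT and 9.94-fold in HS. Averaged over the temperatures, HSP17.6II was 2.03-fold lower in HT (difference -1.02, SE 0.15, adjusted p = 9.36e-05 by limma, range over the alternatives 1.9e-05 to 0.00031). The difference was -1.14 at 15 °C, -1.01 at 22 °C and -0.92 at 27 °C (adjusted p = 0.00605, 0.0141 and 0.0238).

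HSP17.6A (A_46_P181304, AT5G12030), another cytosolic member of class II, had the same arrangement. It was at 7.32, 7.56 and 7.47 in HT and at 8.58, 8.88 and 9.11 in HS at 15 °C, and at 10.80, 11.16 and 11.54 in HT and 12.44, 11.82 and 11.92 in HS at 27 °C. HT was lower on all 9 pairs of arrays with the same temperature and replicate number, each of which shared a slide. In mean level HT was lower by 1.41 at 15 °C, 1.18 at 22 °C and 0.89 at 27 °C (adjusted p = 0.000145, 0.000688 and 0.00599), and by 2.23-fold on average (adjusted p = 2.17e-06). A second probe of each of these loci was not eligible because it was well above background on only 6 of 9 HT and 8 of 9 HS arrays. On these probes the smallest of the 4 steps was 2.76 (A_46_P237799) and 2.28 (A_46_P139009).

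The HSP20-like protein AT2G29500 was measured by 2 rising probes of 1 target, A_46_P236944 and A_46_P142729. On A_46_P236944, HT was at 11.97, 12.05 and 12.39 at 15 °C, at 12.71, 12.85 and 12.69 at 22 °C, and at 14.19, 14.35 and 14.45 at 27 °C. Here most of the difference lay in the second step, with 1.53-fold from 15 to 22 °C and 2.99-fold from 22 to 27 °C in HT, and 1.62-fold and 3.31-fold in HS. Another probe of the locus, on a different target (A_46_P179379), had the reverse arrangement on the authors' scale, with 1.49 and 0.22 in HT and 1.03 and 0.37 in HS. The 2 rising probes and A_46_P179379 were lower in HT on average, by 0.64, 0.64 and 0.51 (adjusted p = 0.000186, 0.000189 and 6.4e-06). The alpha-crystallin type protein AT5G47590 differed between its 2 probes: A_46_P263078 was lower in HT by 0.90 (adjusted p = 0.00222), whereas A_46_P285158 differed by -0.25 (adjusted p = 0.162). In all, 5 of the 6 rising probes of this family were called lower in HT on average and 0 higher, where 19.4% of the 26247 probes were called lower and 28.6% higher. Of the 12 not chosen, 5 were called lower and 5 higher.

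Other chaperones were called in both directions. Of 41 annotated probes for proteins such as HSP70, HSP90, HSP101, DnaJ proteins and heat shock factors, 40 were not chosen, and of these 11 were called higher and 8 lower at 27 °C in HT, and 10 and 8 in HS. Only the DnaJ-domain protein AT3G14200 (A_46_P000436) was a rising probe. Its mean level went from 10.41 ± 0.12 (SD, n = 3) at 15 °C to 11.96 ± 0.22 at 27 °C in HT, and from 10.50 ± 0.02 to 12.23 ± 0.11 in HS, and it was 1.16-fold lower in HT on average (adjusted p = 0.00871).

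A_46_P128404 (AT5G12110), annotated as a subunit of elongation factor EF1B, which reloads the factor that brings aminoacyl-tRNA to the ribosome, had the largest smallest step of the 200. It was at 6.88, 7.06 and 7.20 in HT at 15 °C, at 8.58, 8.79 and 8.60 at 22 °C, and at 10.63, 11.03 and 11.33 at 27 °C. In HS it was at 7.11, 7.01 and 7.30, at 9.36, 9.54 and 9.16, and at 11.81, 11.35 and 11.66. The 2 genotypes overlapped at 15 °C (difference -0.10, adjusted p = 0.824), while HT was lower at 22 °C by 0.70 (adjusted p = 0.00925) and at 27 °C by 0.61 (adjusted p = 0.0199). From 15 to 27 °C the level was 15.5-fold higher in HT and 22.1-fold higher in HS. A ribosomal L29 family protein (A_46_P366965, AT5G02610) was 11.4-fold higher at 27 °C than at 15 °C in HT and 10.6-fold in HS, and its genotype difference of -0.35 on average did not pass the test (adjusted p = 0.0801, range over the alternatives 0.0054 to 0.16).

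**Figure D3:**
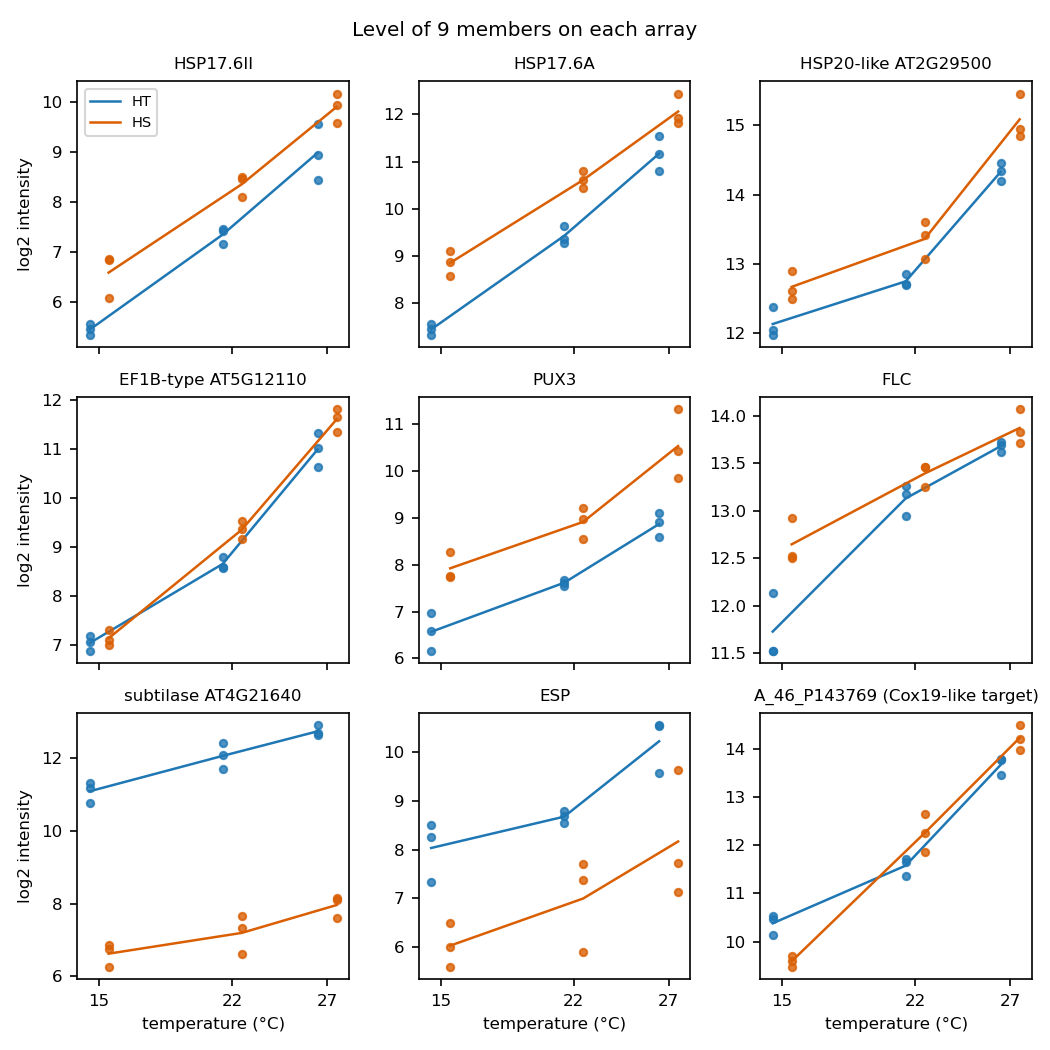
Log2 intensity of 9 rising probes on each array (points) with the group means joined by lines, for HT (blue) and HS (orange) at 15, 22 and 27 °C, each panel with its own vertical axis and the genotypes set slightly apart sideways. HT lies below HS throughout for HSP17.6II, HSP17.6A and PUX3, above HS throughout for the subtilase, and the lines cross for A_46_P143769.

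Lipid transfer proteins, small secreted proteins of the cell wall and cuticle of which some are classed as pathogenesis-related, had 8 rising probes among 24 annotated. Of the 16 not chosen, 3 were called higher and 6 lower at 27 °C in HT, and 2 and 7 in HS. The 8 probes stand for only 3 loci, and 6 of them for AT3G08770 alone, for which these 6 are all the annotated probes. On the authors' scale all 6 had a first step in HT of 1.65 to 1.80 and other steps of 0.47 to 0.79. On A_46_P241749, for example, the HT arrays were at 11.70, 11.30 and 12.38 at 15 °C, at 13.89, 13.03 and 13.63 at 22 °C, and at 14.08, 14.06 and 14.47 at 27 °C. The HS arrays were at 14.25, 13.66 and 14.04, at 14.63, 14.42 and 14.72, and at 14.97, 15.31 and 15.55. The 15 °C arrays of HT were below all the others.

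The 6 probes fell into 2 sets by genotype difference. A_46_P261733, A_46_P241749 and A_46_P285688 were lower in HT by 2.52, 2.19 and 2.04 at 15 °C (adjusted p = 1.01e-05, 3.85e-05 and 0.000272) and by 1.40, 1.08 and 1.00 at 27 °C (adjusted p = 0.00203, 0.0121 and 0.0391). A_46_P277733, A_46_P282613 and A_46_P283163 differed by -1.34, -1.06 and -1.06 at 15 °C (adjusted p = 0.0199, 0.0639 and 0.0701) and by -0.36, -0.12 and -0.04 at 27 °C (adjusted p = 0.627, 0.914 and 0.989). Which gene copies the probes detect was not analysed here. A_46_P290388 shares its target with A_46_P261733 but is annotated to a different locus (AT2G01140, an aldolase), and its differences of -2.44 at 15 °C and -1.34 at 27 °C were close to those of A_46_P261733.

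**Figure D4:**
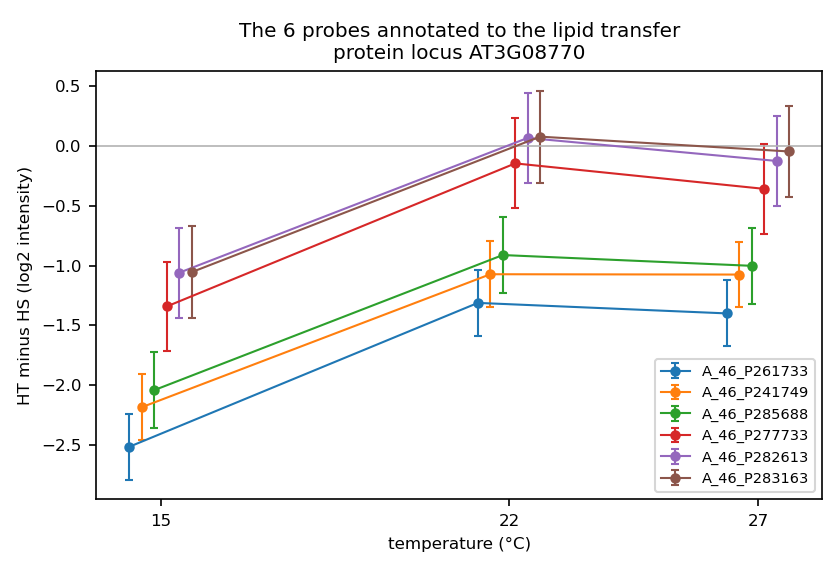
HT minus HS in log2 intensity (vertical) at 15, 22 and 27 °C (horizontal) for the 6 rising probes annotated to the lipid transfer protein AT3G08770, with the standard error of the fit as bars. All 6 lie below 0 at 15 °C, and at 27 °C 3 of them lie between -0.36 and -0.04 and the other 3 further below.

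Of the other lipid transfer proteins, AT5G59320 (A_46_P136169) was at 15.04, 15.10 and 15.01 in HT and 16.00, 16.02 and 16.43 in HS at 15 °C, and at 17.00, 16.80 and 16.98 in HT and 17.31, 17.54 and 17.64 in HS at 27 °C. It was lower in HT at each temperature, by 1.10, 0.71 and 0.57 (adjusted p = 1.72e-05, 0.00103 and 0.00524). The other 3 probes of this locus, on other targets, were not among the rising probes. A_46_P136179 had 4 positive steps, the smallest of 0.42 lying just outside the limit, A_46_P290298 had 4 positive steps of 0.01 to 0.30, and A_46_P212960 had negative steps throughout. Whether their genotype differences departed from that of A_46_P136169 was not tested. On average A_46_P212960 was higher in HT by 0.87 (adjusted p = 0.0327 by limma). A_46_P136179 and A_46_P290298 differed by -0.29 and -0.24, of the same sign as A_46_P136169, and did not pass (adjusted p = 0.127 and 0.095). In all, 6 of the 8 rising lipid transfer probes were called lower in HT on average and 0 higher, against 19.4% and 28.6% of the 26247 probes. Of the 16 not chosen, 2 were called lower and 5 higher.

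Protease inhibitors and defence proteins contributed 6 rising probes of 35 annotated. Of the 29 not chosen, 8 were called higher and 5 lower at 27 °C in HT, and 5 and 5 in HS. The 6 were 3 Kunitz-type trypsin inhibitor probes, a cystatin, a defensin-like trypsin inhibitor and a disease resistance protein of the CC-NBS-LRR class. The defensin-like AT2G43510 (A_46_P022106) had mean levels of 13.99, 15.28 and 15.89 in HT and 14.74, 15.64 and 16.37 in HS at 15, 22 and 27 °C. The Kunitz inhibitor AT1G72290 (A_46_P291403) was 9.85-fold higher at 27 °C than at 15 °C in HT and 5.05-fold in HS. None of the 6 passed the test between genotypes on average, with differences from -0.62 to 0.37 (adjusted p from 0.0623 to 0.377).

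Among flowering genes, FLC and AGL79, both MADS-box factors, were the only rising probes of 18 annotated. Of the 16 not chosen, 2 were called higher and 4 lower at 27 °C in HT, and 3 and 2 in HS. FLC (A_46_P370555, AT5G10140) was at 11.52, 11.52 and 12.14 in HT at 15 °C and at 12.52, 12.50 and 12.92 in HS, at 13.18, 13.27 and 12.94 against 13.46, 13.46 and 13.26 at 22 °C, and at 13.62, 13.73 and 13.70 against 13.83, 14.07 and 13.72 at 27 °C. The genotypes did not overlap at 15 °C, where HT was 1.89-fold lower (adjusted p = 0.000955), and the differences of -0.26 at 22 °C and -0.19 at 27 °C did not pass the test (adjusted p = 0.324 and 0.526). HT was nonetheless below HS in all 9 pairs of the same replicate number, and averaged over the temperatures the difference of -0.46 (SE 0.10) passed (adjusted p = 0.00156). The name FLC rests on the Arabidopsis match. Which of the broccoli FLC homologues measured by the study this probe detects was not analysed, so these values cannot be assigned to BoFLC1. AGL79 (A_46_P126454, AT3G30260) had mean levels of 4.92, 5.72 and 6.55 in HT and 6.30, 6.78 and 7.30 in HS. It was lower in HT at each temperature, by 1.38, 1.06 and 0.75 (adjusted p = 9.62e-05, 0.000998 and 0.0121).

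Of 139 annotated probes in the list of other transcription factors, 3 were rising probes. Of the 136 not chosen, 50 were called higher and 28 lower at 27 °C in HT, and 42 and 23 in HS. One of the 3 is no transcription factor: the epithiospecifier protein ESP, described below, entered the list because its description names a WRKY factor as its partner. MYB3 (A_46_P371750, AT1G22640), a repressor of phenylpropanoid genes, was lower in HT by 1.42 at 15 °C (adjusted p = 0.00118), and its differences of -0.44 at 22 °C and -0.62 at 27 °C did not pass (adjusted p = 0.296 and 0.133). The bZIP factor AT1G06070 (A_46_P379628) was at 5.97, 6.34 and 6.49 in HT and 8.26, 8.35 and 8.37 in HS at 15 °C, and at 8.83, 9.41 and 9.62 against 10.48, 10.47 and 9.84 at 27 °C. It was lower in HT at all 3 temperatures, by 2.06, 1.80 and 0.98 (adjusted p = 5.03e-05, 0.000187 and 0.0179).

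A sesquiterpene synthase (A_46_P326485, AT5G44630), which makes volatile terpenes, was 13.6-fold higher at 27 °C than at 15 °C in HT and 13.1-fold in HS. It was at 13.59, 13.46 and 11.58 on the HT arrays and 12.03, 12.86 and 10.88 on the HS arrays at 22 °C, with replicate 3 lowest in both. Of 19 annotated glucosinolate and myrosinase probes, 3 were rising probes, and of the 16 not chosen 8 were called higher and 4 lower at 27 °C in HT, and 6 and 3 in HS. ESP (A_46_P116364, AT1G54040), which directs glucosinolate breakdown to epithionitriles and nitriles, was at 7.33, 8.27 and 8.51 in HT at 15 °C, at 8.70, 8.80 and 8.54 at 22 °C, and at 9.59, 10.54 and 10.56 at 27 °C. In HS it was at 5.59, 6.50 and 6.00, at 7.71, 7.37 and 5.91, and at 7.73, 9.64 and 7.14. HT was above HS on all 9 pairs of the same replicate number and 3.78-fold higher on average (adjusted p = 0.000486), although at 27 °C HS replicate 2 exceeded HT replicate 1.

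Other ESP probes had smaller second steps. A_46_P171254 and A_46_P239239, on other targets, had steps from 22 to 27 °C of 0.23 and 0.39 in HT and of -0.21 and 0.01 in HS on the authors' scale, and both were higher in HT on average, by 1.29 and 1.31 (adjusted p = 6e-07 and 5.4e-06). The other 2 rising probes of the list match a pseudogene related to myrosinase-binding proteins (AT3G16415), and their genotype differences of -0.27 and -0.36 did not pass the test. The nucleoside phosphatase AT1G14250 (A_46_P324905), of the apyrase family, was higher in HT by 1.51 at 22 °C and 1.46 at 27 °C (adjusted p = 0.00666 and 0.0083), whereas its difference of 0.61 at 15 °C did not pass (adjusted p = 0.277).

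Of 55 annotated redox probes, 3 were rising probes. Of the 52 not chosen, 17 were called higher and 16 lower at 27 °C in HT, and 13 and 16 in HS. The 3 were the EF1B probe above, whose annotation also names a glutathione transferase domain, and 2 peroxidases that differed in opposite directions between the genotypes. The cold-inducible peroxidase AT1G05260 (A_46_P116374) was at 4.81, 4.94 and 6.37 in HT at 15 °C and at 9.43, 9.26 and 8.28 at 27 °C, which is 12.2-fold higher in mean level, and 7.53-fold higher in HS. Its genotype difference of -0.88 on average (adjusted p = 0.032) was lost when any of 9 arrays was left out, with adjusted p up to 0.067. The peroxidase AT3G17070 (A_46_P109234) was higher in HT by 1.10, 1.38 and 1.54 (adjusted p = 0.0024, 0.000401 and 0.00015).

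Of 14 annotated jasmonate probes, 3 were rising probes, and of the 11 not chosen 4 were called higher and 5 lower at 27 °C in HT, and 0 and 5 in HS. The 3 were 2 probes of a berberine-type oxidase (AT2G34810), whose differences between genotypes did not pass, and A_46_P009581, a Brassica napus transcript described as jasmonate-inducible. The last was higher in HT by 1.19, 0.87 and 0.91 at 15, 22 and 27 °C (adjusted p = 5.53e-05, 0.000903 and 0.000646).

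Of 58 annotated RNA-processing probes, 4 were rising probes, and of the 54 not chosen 15 were called higher and 11 lower at 27 °C in HT, and 11 and 12 in HS. The SR protein AT1G55310 (A_46_P348770), a splicing factor of nuclear speckles, was at 10.05, 10.06 and 10.46 in HT and 7.23, 7.09 and 7.84 in HS at 15 °C, and at 12.21, 12.43 and 12.17 against 10.03, 9.74 and 9.22 at 27 °C. It was 6.43-fold higher in HT on average (adjusted p = 3.35e-09). A second SR protein, AT2G24590, was higher in HT on average by 0.29 and 0.42 on its 2 rising probes (adjusted p = 0.00331 and 0.00235), and the remaining probe of this locus, A_46_P012736, had negative steps at all 4 points.

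Of 69 annotated probes for ubiquitin and proteolysis, 7 were rising probes, and of the 62 not chosen 15 were called higher and 16 lower at 27 °C in HT, and 14 and 16 in HS. The subtilase AT4G21640 (A_46_P285698), a serine protease, had the largest genotype difference of the 200. It was at 10.76, 11.19 and 11.33 in HT and 6.26, 6.86 and 6.76 in HS at 15 °C, at 12.08, 12.42 and 11.70 against 7.33, 7.66 and 6.61 at 22 °C, and at 12.64, 12.68 and 12.91 against 8.12, 8.16 and 7.61 at 27 °C. HT was 26.1-fold higher on average (difference 4.71, SE 0.16, adjusted p = 7.9e-12). The level at 27 °C over that at 15 °C was 3.14-fold in HT and 2.53-fold in HS, so that the genotypes remained apart at each temperature.

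PUX3 (AT4G22150), a UBX-domain partner of the segregase CDC48, lay in the other direction. On A_46_P283293 it was at 6.15, 6.59 and 6.96 in HT and 8.27, 7.73 and 7.77 in HS at 15 °C, at 7.68, 7.62 and 7.54 against 8.97, 9.22 and 8.56 at 22 °C, and at 8.60, 8.91 and 9.10 against 10.43, 9.86 and 11.32 at 27 °C. It was 2.71-fold lower in HT on average, and 3.18-fold lower on the second probe, A_46_P136839 (adjusted p = 1.89e-05 and 2.99e-06). All 3 probes of that target were rising probes. A probe of another target annotated to the same locus, A_46_P072531, was well above background on 16 arrays. It had steps of -1.78 and -0.82 in HT and of 0.42 and -1.63 in HS on the authors' scale. Its genotype difference was of opposite sign, 1.14 on average, and did not pass the test (adjusted p = 0.0635 by limma). AT4G02980, an auxin-binding protein, entered the proteolysis list by its description, and was singled out after its values were seen. A_46_P057881 was at 8.85, 8.80 and 8.95 in HT and 6.78, 6.69 and 7.02 in HS at 15 °C, and at 9.68, 9.81 and 9.81 against 9.54, 9.86 and 9.16 at 27 °C. HT was higher by 2.04 at 15 °C and 1.27 at 22 °C (adjusted p = 1.15e-06 and 0.000129), and the difference of 0.24 at 27 °C did not pass (adjusted p = 0.444).

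Of 85 probes for receptor and other kinases, 84 were not chosen, and of these 25 were called higher and 23 lower at 27 °C in HT, and 23 and 11 in HS. The 1 rising probe was the disease resistance protein AT5G66910 (A_46_P314935), whose description matched the list by its leucine-rich repeats. It is the CC-NBS-LRR protein counted above. Its genotype difference was -0.23 on average (adjusted p = 0.38).

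The remaining probes with the largest steps were a 2-oxoglutarate-dependent oxygenase (A_46_P044031, AT1G14120), a potential antisense transcript (A_46_P126228, AT3G12502) and 4 unnamed probes. The oxygenase was at 4.91, 4.92 and 4.87 in HT at 15 °C, at 8.33, 7.52 and 7.32 at 22 °C, and at 8.78, 8.91 and 9.21 at 27 °C. In HS it was at 7.85, 7.68 and 7.85, at 9.74, 9.64 and 9.38, and at 11.38, 11.20 and 11.35, so that HS at 15 °C was at about the level of HT at 22 °C. HT was 5.15-fold lower on average (adjusted p = 6.77e-10), and the second probe of this locus, A_46_P177554, well above background on 17 arrays, was lower by 2.40 (adjusted p = 4.1e-09). The antisense transcript overlaps AT3G12500 in Arabidopsis. It was lower in HT by 1.05 on average (adjusted p = 0.00303), and without a strand-specific check the probe cannot be told apart from its overlapping gene.

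Of the 4 unnamed probes, A_46_P143769 and A_46_P032256 share a target with A_46_P266408, which is annotated as a Cox19-like protein (AT5G09570), a family known in yeast for its part in the assembly of cytochrome oxidase. On A_46_P143769 HT was at 10.47, 10.13 and 10.54 and HS at 9.61, 9.47 and 9.70 at 15 °C, while at 22 °C HT was at 11.66, 11.70 and 11.36 and HS at 12.26, 12.65 and 11.85. At 27 °C HT was at 13.44, 13.75 and 13.79 and HS at 14.48, 14.20 and 13.98. HT thus lay above HS on every array at 15 °C and below it on every array at both higher temperatures. The differences were 0.79, -0.68 and -0.56 at 15, 22 and 27 °C (adjusted p = 0.00866, 0.022 and 0.0571). From 15 to 27 °C the level was 9.73-fold higher in HT and 24.7-fold higher in HS.

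The other 2 unnamed probes, A_46_P232019 and A_46_P067726, were 14.0-fold and 10.5-fold higher at 27 °C than at 15 °C in HT. A_46_P232019 was higher in HT by 0.75 at 15 °C (adjusted p = 0.00237), and its differences of 0.10 and 0.08 at 22 and 27 °C did not pass. Another 3 unnamed probes were singled out after their values were seen. A_46_P187124 and A_46_P151734 had the largest first steps. A_46_P187124 was at 8.66, 8.14 and 8.50 in HT at 15 °C, at 13.96, 14.07 and 13.60 at 22 °C, and at 14.90, 15.14 and 14.87 at 27 °C, which is 43.6-fold for the first step and 2.13-fold for the second. The corresponding folds in HS were 36.5 and 1.88. A_46_P221634 had the largest second step, at 7.36, 7.59 and 6.85 in HT at 22 °C and 9.93, 10.82 and 10.75 at 27 °C, which is 9.38-fold, and 11.5-fold in HS.

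The levels of the rising probes were then compared between the genotypes, which the choice of probes did not use. Averaged over the 3 temperatures, 58 of the 200 (29%) were called lower in HT and 37 (18.5%) higher. Over the 26247 probes from which they were chosen, 19.4% were called lower and 28.6% higher, and over all 43603 probes 15.1% and 20.9%. At 15 °C, 35 rising probes were called lower and 24 higher, against 12.1% and 15.1% of the 26247. At 22 °C, 38 were called lower and 21 higher, against 11.3% and 14.5%, and at 27 °C 37 and 19, against 10.8% and 14.3%. Over all 43603 probes the lower and higher calls were 9.71% and 11.4% at 15 °C, 9.4% and 11.0% at 22 °C, and 9.11% and 10.6% at 27 °C. The median difference over the rising probes was -0.11 on average, against 0.05 for the 26247. At each temperature the lower calls by limma outnumbered the higher among the rising probes, and the higher calls outnumbered the lower among all probes. This excess of lower calls lay mostly in the rising probes of the study's tables, as given apart below. With the methods' t-test at an adjusted p under 0.05, the lower calls among the rising probes did not outnumber the higher at 15 °C.

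**Figure D5:**
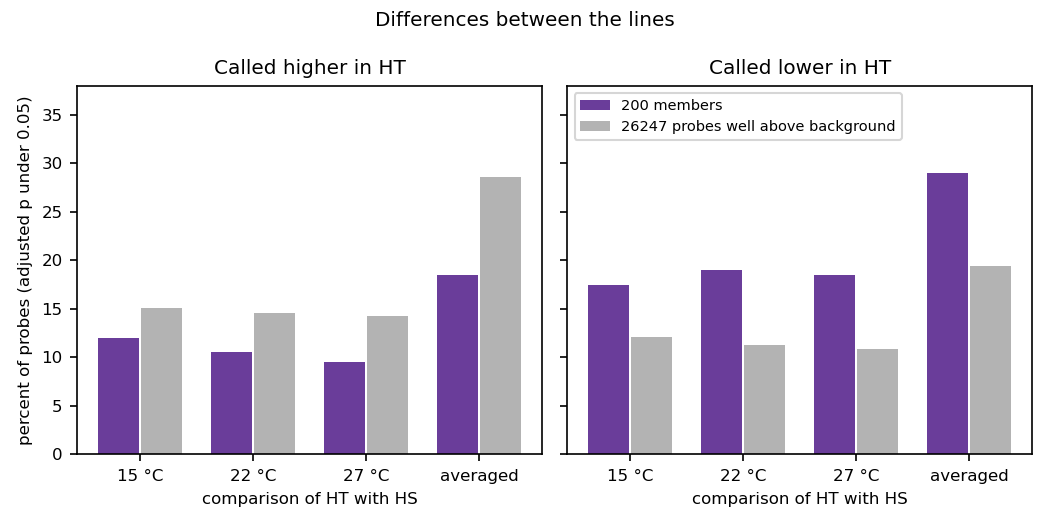
Percent of probes called higher in HT (left) and lower in HT (right) by limma at an adjusted p under 0.05, at each temperature and averaged, for the 200 rising probes (purple) and the 26247 probes well above background (grey). Averaged, 29% of the rising probes were called lower, against 19.4% of the 26247, and 18.5% higher, against 28.6%. Among the 96 rising probes in neither of the study's tables, 7 were called lower and 15 higher on average.

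Probes inside and outside the study's tables are given apart. Of the 104 rising probes in the study's tables, 51 were called lower on average and 22 higher, whereas of all 2843 such probes well above background 686 were called lower and 1422 higher. At 15, 22 and 27 °C, 28, 29 and 29 of the 104 were called lower and 15, 15 and 12 higher. Of the 2843, 15.0%, 11.3% and 10.2% were called lower and 38.8%, 38.2% and 38.2% higher. Of the 96 rising probes in neither table, 7 were called lower and 15 higher, against 18.9% and 26.0% of the 23404 such probes. On average, lower calls thus outnumbered higher ones only inside the tables. At 15, 22 and 27 °C, 7, 9 and 8 of the 96 were called lower and 9, 6 and 7 higher. Of the 23404, 11.7%, 11.3% and 10.9% were called lower and 12.2%, 11.7% and 11.4% higher. The median difference of the 96 was 0.06, 0.05 and 0.05, against 0.05 for the 23404 at each temperature. Since the tables had been chosen in part on genotype differences in these arrays, the counts for the 104 are no independent evidence of direction.

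Calls at the 3 temperatures were also counted together. Of the 200 rising probes, 26 were called lower in HT at each of the 3 temperatures and 12 higher at each, which is 13% and 6%, against 7.75% and 9.11% of the 26247 probes, while 122 were called at none. Lower calls at 15 °C alone numbered 5 and higher calls at 15 °C alone 7. For these counts and for the 122, the shares over the 26247 probes are not given here, and nothing is read from them. Averaged differences of at least 2-fold among the called probes numbered 23 lower and 14 higher, against 3.66% and 3.92% of the 26247. Within slides, the median difference over the rising probes was -0.14 on slide 4 and -0.05 on slide 5 at 15 °C, -0.08, -0.10 and -0.10 on slides 1, 2 and 3 at 22 °C, and -0.24, -0.15 and 0.13 at 27 °C. It was thus below 0 on 7 of the 8 and above 0 on slide 3 at 27 °C. With slide as a block, 63 rising probes were called lower and 39 higher on average. The share over all probes in that fit is not given here, so these 2 counts have no baseline.

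The probes furthest below in HT were mostly unnamed. A_46_P261633 was at 9.21, 8.78 and 9.83 in HT and 13.50, 13.24 and 13.29 in HS at 15 °C, and at 11.37, 11.48 and 11.78 against 14.32, 14.74 and 14.88 at 27 °C, and was 10.7-fold lower in HT on average (adjusted p = 1.62e-10). A_46_P288948, of the same target, was 7.11-fold lower (adjusted p = 3.32e-09). A_46_P266313 was 8.70-fold and A_46_P101909 5.97-fold lower. The target of A_46_P261633 has 8 probes on the array, and the 6 not chosen were each well above background on 9 of 9 HS arrays. Of these 6, 2 were well above background on 0 of 9 HT arrays, 3 on 1, 4 and 5 arrays, and 1 on 9. On this last probe, A_46_P283383, the mean level was 5.44, 6.39 and 6.64 in HT and 13.61, 14.44 and 14.97 in HS at 15, 22 and 27 °C, a larger difference than on either of the chosen probes. The probes of this target thus gave unequal differences between the genotypes.

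Furthest above in HT, besides the subtilase, the SR protein and ESP, were the unnamed A_46_P164824 and A_46_P204744. A_46_P164824 was at 13.57, 13.84 and 13.52 in HT and 9.23, 10.27 and 9.00 in HS at 15 °C, and at 14.55, 14.78 and 14.79 against 11.80, 11.84 and 11.51 at 27 °C, and was 11.4-fold higher on average (adjusted p = 2.7e-09). A_46_P204744 was 5.57-fold higher (adjusted p = 4.57e-08), with differences of 2.45, 2.44 and 2.54 at 15, 22 and 27 °C. Of the rising probes singled out after their values were seen, the beta carbonic anhydrase BCA5 (A_46_P091856, AT4G33580), an enzyme that interconverts carbon dioxide and bicarbonate, was 3.75-fold higher in HT on average (adjusted p = 1.15e-07), with the HT arrays at 7.17, 6.54 and 7.42 and the HS arrays at 5.28, 4.57 and 5.53 at 15 °C. RCAR3 (A_46_P192094, AT5G53160), a component of the abscisic acid receptor, was at 8.78, 8.66 and 8.25 in HT and 6.89, 7.26 and 7.19 in HS at 15 °C, and at 10.66, 10.51 and 9.31 against 9.72, 9.03 and 9.08 at 27 °C. It was higher in HT by 1.45 at 15 °C and 1.13 at 22 °C (adjusted p = 0.00356 and 0.0179), and the difference of 0.88 at 27 °C did not pass (adjusted p = 0.0633).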

How the data were processed

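Scanner output of 18 Agilent 1-colour arrays was used, 3 for each genotype and temperature. The authors deposited the intensity of each spot, which the Feature Extraction software had corrected for background but which had not been scaled between arrays. The authors also deposited log2 values. Each of these was found to be the log2 intensity minus the 75th percentile of its array and minus the median of its probe (all values within 0.01), and they served to choose the probes. For levels and tests, log2 intensities without control spots and without 278 spots marked as outliers were brought to the same quantiles on all arrays, since RMA is the method given by the study. The tables used for gene names were incomplete.

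With limma 3.58.1 in R 4.3.3, a mean for each genotype and temperature was fitted over 18 arrays, which left 12 degrees of freedom. P-values were adjusted over 43603 probes by Benjamini-Hochberg, and a call needed an adjusted p under 0.05, whatever the fold. Tests were two-sided, and the fit was checked on simulated data with known changes. Counts and figures were made in Python 3.11.15 with pandas 2.3.3 and matplotlib 3.10.9. The number of arrays limits the precision, and p-values measure the spread between these samples, which may be technical. Rising probes and gene lists were chosen with earlier results of these data known. Named probes were the 12 with the largest smallest step, up to 4 of each list, the 5 called furthest above and the 5 furthest below in HT, those at the limit, and loci that the study's results name, with the other probes of these loci. Probes named outside this rule are said to be so. The alternatives were a 75th percentile shift, the authors' values, normexp with an offset of 50, a filter on dim probes, replicate number or slide as a block, only the arrays compared, the methods' t-test, an adjusted p under 0.1, and leaving out each array.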

Additional observations from a re-analysis of the deposited data

Results flagged for a closer look

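On the 3 probes of 1 target, the difference between the genotypes had opposite signs at different temperatures, with all 3 HT arrays above all 3 HS arrays at 15 °C and all 3 below at 22 °C or 27 °C. HT minus HS at 15, 22 and 27 °C was 0.79, -0.68 and -0.56 on A_46_P143769, 0.86, -0.64 and -0.67 on A_46_P032256, and 0.49, -1.04 and -0.87 on A_46_P266408, which is annotated as a Cox19-like protein. Whether the difference between the genotypes changed with temperature was not tested, since the temperature steps chose the probes. The 15 °C arrays were on other slides than those at 22 and 27 °C, and both genotypes shared each slide.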

How the results depend on the processing

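Averaged over the temperatures, the count of rising probes called lower in HT stayed between 52 and 66 and that called higher between 33 and 43 under all alternatives. The shares over all probes under the alternatives are not given here. The counts in this section thus describe how far the calls moved and have no baseline. The methods' t-test at an adjusted p under 0.05 called 17 lower at 15 °C, 9 higher and 18 lower at 22 °C, and 11 higher and 18 lower at 27 °C. Higher calls at 15 °C numbered 17 to 30 over the alternatives other than leaving out an array. With this t-test the lower calls thus did not outnumber the higher at 15 °C. At an adjusted p under 0.1 it called 13 higher at 22 °C, as did the fit of only the arrays compared. Leaving out 1 array gave 20 to 26 higher and 30 to 45 lower at 15 °C, 14 to 21 and 28 to 39 at 22 °C, 12 (without HT27 replicate 2) to 17 and 25 to 37 at 27 °C, and 34 to 38 and 52 to 66 on average. The median difference at 22 °C was 0.01 without HT22 replicate 3, which was on slide 3. Of 1300 values for named probes, 1 reversed: A_46_P067726 ranged from -0.28 to 0.067 as 1 array was left out, with the highest value without HT22 replicate 3, and was called in no case. Of 36 named probes called on average, 34 kept the call under every alternative, and AT1G05260 and A_46_P277733 did not. Calls of named probes at single temperatures under the alternatives are not given here. With replicate number as a replicate block, 64 rising probes were called lower and 40 higher on average, 47 and 26 at 15 °C, 41 and 26 at 22 °C, and 41 and 21 at 27 °C. Deviations from the group means had a correlation over 0.1 in 8 of 9 pairs of the same number (0.02 to 0.60). Between arrays of different numbers it ranged from -0.57 to 0.09. Replicates of the same number thus shared deviations in most pairs. The main fit did not treat them as pairs, and only the fit with the replicate block takes this into account. Applied without 1 array, the rule kept 162 (without HS22 replicate 3) to 192 of the 200 probes, and with detection asked of the 27 °C arrays only 150, since probes that are dim at lower temperatures then compete for the 200 places. The signal over background limits what the rule can hold: such probes could not enter it.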
